A study of Mus musculus with 12 samples.

Results

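The genes of the core circadian clock loop were described in mouse heart muscle. They were chosen by name and role, as the positive limb (Arntl, also called Bmal1, with Clock and Npas2) and the negative limb (Per1, Per2, Per3, Cry1, Cry2, Nr1d1 and Nr1d2). These 10 genes had 16 probe sets, of 12394 genes and 22690 probe sets on the array. A probe set is a group of short probes for 1 transcript region, and each gene was represented by its brightest one. Total RNA from cardiac muscle was hybridised to 12 Affymetrix arrays, 3 for each of 4 groups: control (wild type) and mdx hearts at 8 weeks, and control and mdx hearts at 10.5 months. The mdx mouse carries a mutation of Dmd, the gene of dystrophin, in every cell, and is a standard model of Duchenne muscular dystrophy. The strain, the sex and the time of day at which hearts were taken are not given in the sources used here. The labels also do not say whether each array was a separate animal, so p-values measure the spread between arrays, which may be technical.

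The circadian clock is a daily feedback loop that runs in nearly every cell, heart muscle cells included. ARNTL pairs with CLOCK or its relative NPAS2 and switches on the Per, Cry and Nr1d genes through E-box sequences. PER and CRY proteins then block that pair, while NR1D1 and NR1D2 (REV-ERB alpha and beta) repress Arntl through sites they share with the ROR receptors. In a running clock, Arntl transcripts therefore peak at a time of day when those of Nr1d1 and the Per genes are low, and the level of each depends on when tissue is taken.

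The start regions of 9 of the 10 genes were in the RefSeq promoter table for GRCm38.p6, in 13 windows that each ran from 250 bases before a transcription start to 50 after it. Per2 had no entry. The stretches shown are those in which letters of a clock element were found on either strand, for the genes on which the results turn and for Cry1. Capitals mark the matched letters, and AACGTG is CACGTT read from the other strand. The E-box CACGTG was in the windows of Per1 and Cry1, and in 7.15% of all 32851 windows. Its variant CACGTT was in those of Cry1, Cry2 and Nr1d1, and in 4.68% of all. The D-box, the element of DBP, TEF and HLF, was searched as TTATGTAA or TTACGTAA. It was found in Per3 alone of the 9 genes, in 2 copies, and in 1.06% of all windows. The site of the ROR and NR1D receptors, searched as TAGGTCA or TAGGTTA, was found in Arntl alone of the 9 and in 4.0% of all windows. No match overlapped another, and a match is a description of letters only.
Per3, chr4:151044796-151044895, minus strand: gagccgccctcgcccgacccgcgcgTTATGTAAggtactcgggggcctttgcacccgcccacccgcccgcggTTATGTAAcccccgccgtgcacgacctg
Per1, chr11:69098749-69098818, plus strand: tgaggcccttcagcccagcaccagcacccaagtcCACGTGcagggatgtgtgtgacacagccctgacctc
Cry1, chr10:85185085-85185154, minus strand: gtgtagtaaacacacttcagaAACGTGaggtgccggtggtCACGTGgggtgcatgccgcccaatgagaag
Cry2, chr2:92434210-92434259, minus strand: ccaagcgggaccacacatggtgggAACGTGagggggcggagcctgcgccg
Nr1d1, chr11:98775388-98775437, minus strand: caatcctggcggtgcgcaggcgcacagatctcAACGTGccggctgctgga
Arntl, chr7:113207493-113207522, plus strand: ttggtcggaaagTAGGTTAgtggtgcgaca
Arntl, chr7:113207529-113207558, plus strand: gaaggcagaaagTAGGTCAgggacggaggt

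Signals are given on a linear scale on which every array has a trimmed mean of 500. Of the 16 clock probe sets, 10 had a mean signal of at least 100 over the 12 arrays and were tested, for 8 of the 10 genes. Npas2 and Cry1 were too dim to be tested. A probe set of Per2 with a mean of 108 lay just inside this limit, and probe sets of Per3 and Per2 with means of 98.6 and 95.9 lay just outside it. Differences are on the scale of log2(signal + 32), which understates the change of dim genes. They are given with the standard error of a limma fit to all 12 arrays and a p-value adjusted over 14932 probe sets by Benjamini-Hochberg.

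Dmd, the check of the mdx label, read 159 to 286 on the 6 mdx arrays and 607 to 839 on the 6 control arrays. A keyword of the records names extraocular muscle, but the 9 skeletal and extraocular muscle markers were all under the testing limit, with summed signals of 213 to 676 per array against 114797 to 369971 for 6 ventricular markers. The sums of 7 atrial markers differed widely within the 10.5-month control hearts, from 5636 to 23990, and ran from 12400 to 18730 in the mdx hearts of that age. At 8 weeks they ran from 5306 to 7581 in control and from 12411 to 13532 in mdx hearts. These sums are mostly Nppa, which ventricles also make under strain, so the single markers are given beside the clock results. On 4 arrays (control replicate 2 and mdx replicates 1 and 2 at 8 weeks, and mdx replicate 3 at 10.5 months) the brightest signals reached further than on the others.

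Across both ages, no clock loop gene passed the test between mdx and control hearts at an adjusted p below 0.05. The pattern was clearest at 10.5 months, where Arntl read higher and Per1, Per3, Nr1d1 and Nr1d2 read lower on every mdx array than on every control array. Groups did not overlap for 18.1% of all tested probe sets at that age. The calls that were made were with age in the mdx hearts, where Arntl rose and Cry2 and Nr1d1 fell between 8 weeks and 10.5 months. These were 3 of 10 clock probe sets, against 11.4% of all. The count was 1 without mdx replicate 2 at 10.5 months and 0 without mdx replicate 3.

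**Figure D1:**
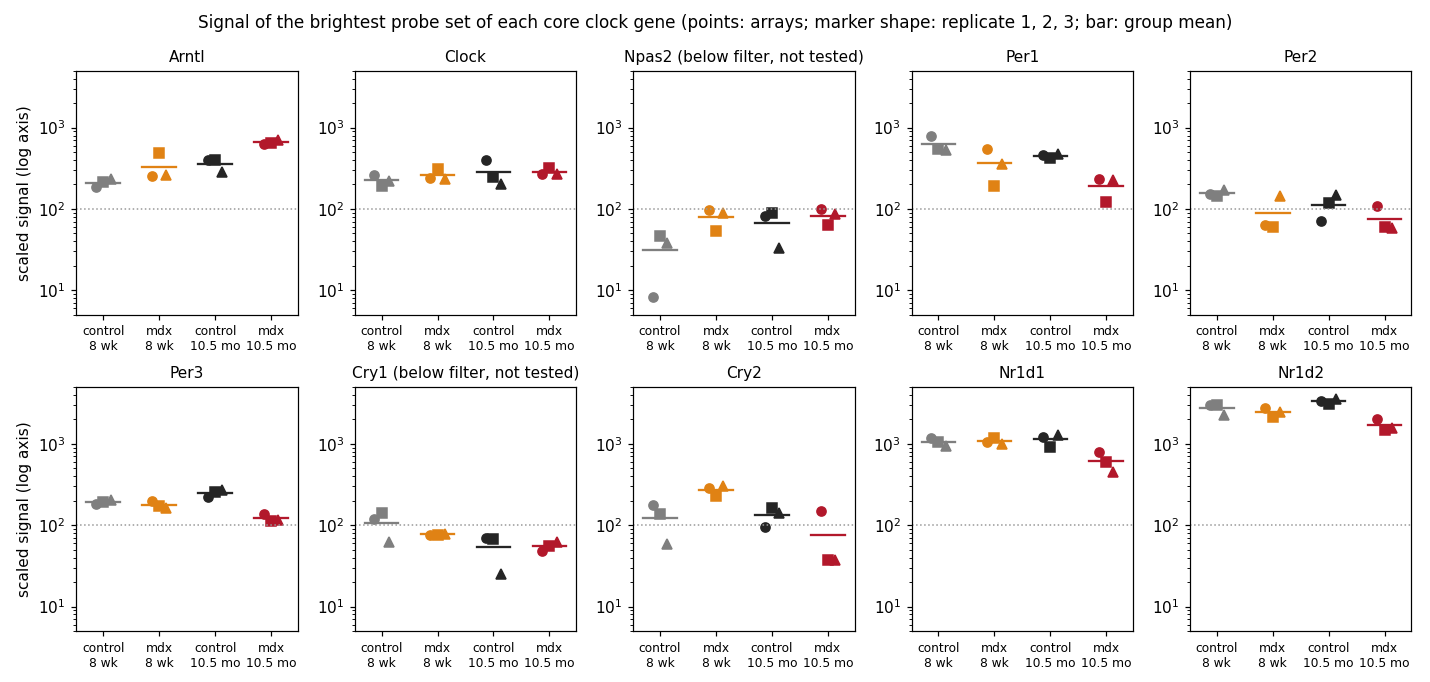
Scaled signal of the clock loop genes on each of the 12 arrays, by group, with 1 point per array and a bar for the group mean of 3. At 10.5 months the mdx points of Arntl lie above all control points, and those of Per1, Per3, Nr1d1 and Nr1d2 lie below them.

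Arntl is the part of the activating pair without which the loop stops. In control hearts at 8 weeks it read 187, 214 and 231, and in mdx hearts of that age 251, 484 and 262. The older control hearts gave 396, 396 and 285, and the older mdx hearts 623, 644 and 714. The groups did not overlap at either age, and mdx replicate 2 stood far above the other two arrays of its group at 8 weeks. At 10.5 months the group means were 359 ± 63.9 in control and 660 ± 48.0 in mdx hearts (SD, n = 3), a log2 difference of 0.84 ± 0.22 or 1.78-fold. Its limma adjusted p was 0.367, so it did not pass. At 8 weeks the log2 difference was 0.53 ± 0.22 (adjusted p = 0.218), and it was 0.25 without mdx replicate 2.

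Clock, the partner of ARNTL, showed no such separation. It read 261, 192 and 223 in control and 244, 309 and 232 in mdx hearts at 8 weeks. The older hearts gave 402, 250 and 201 (control) and 271, 315 and 266 (mdx). The groups overlapped at both ages, and the control hearts at 10.5 months alone spanned the values of all mdx arrays of that age. The log2 differences were 0.19 ± 0.21 (adjusted p = 0.687) and 0.05 ± 0.21 (adjusted p = 0.973), with 95% intervals of -0.27 to 0.64 and -0.41 to 0.50. A dimmer probe set of Clock gave -0.27 ± 0.46 and 0.05 ± 0.46.

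Npas2 takes the place of CLOCK in some tissues. Its brighter probe set read 8.26, 46.2 and 38.3 in control and 98.0, 53.9 and 88.2 in mdx hearts at 8 weeks. The older hearts gave 81.5, 88.4 and 32.9 (control) and 99.3, 63.2 and 86.2 (mdx). All of these values are under the testing limit, the mdx arrays lay above the control arrays at 8 weeks only, and its other probe set ran from 6.56 to 116 with overlap in both comparisons.

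Among the period genes, whose proteins close the loop, Per1 read 794, 545 and 534 in control and 545, 193 and 354 in mdx hearts at 8 weeks. In older hearts the signals were 462, 420 and 474 (control) and 232, 121 and 224 (mdx). The older groups were well apart, while at 8 weeks the highest mdx array reached the control values. The means at 10.5 months were 452 ± 28.5 and 192 ± 61.7 (SD, n = 3), a log2 difference of -1.15 ± 0.30 or 2.22-fold lower (adjusted p = 0.367). At 8 weeks the log2 difference was -0.81 ± 0.30 (adjusted p = 0.184).

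Per2 was near the testing limit, with group means of 157 (control) and 89.1 (mdx) at 8 weeks and 112 and 75.5 at 10.5 months. It passed that limit only through the control hearts, where its means were high, above all at 8 weeks. Its p-values are therefore not independent of the filter. It read 154, 143 and 173 in control and 64.3, 59.6 and 143 in mdx hearts at 8 weeks. In older hearts the readings were 70.5, 118 and 147 (control) and 108, 60.4 and 58.1 (mdx). Groups overlapped at 10.5 months, and at 8 weeks 1 mdx array read as high as the lowest control array. The log2 differences were -0.70 ± 0.27 (adjusted p = 0.193) and -0.41 ± 0.27 (adjusted p = 0.77). Its untested probe set read 96.2, 137 and 136 in control and 51.1, 56.3 and 5.86 in mdx hearts at 10.5 months, with no overlap.

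Per3 had the smallest p-value of the clock loop at 10.5 months. It read 221, 255 and 272 in control hearts of that age and 137, 111 and 114 in mdx hearts. The younger hearts gave 184, 193 and 206 (control) and 200, 174 and 163 (mdx). The 10.5-month groups were far apart, and the 8-week groups overlapped. The means at 10.5 months were 249 ± 26.2 and 121 ± 14.0 (SD, n = 3), a log2 difference of -0.88 ± 0.14, or 1.84-fold lower, with a 95% interval of -1.18 to -0.57. The unadjusted limma p of 2.83e-05 ranked 8 among 14932 probe sets, and the adjusted p of 0.0529 fell just short of the threshold. At 8 weeks the difference was -0.11 ± 0.14 (adjusted p = 0.742). Its 2 other probe sets were too dim to be tested. Of these, 1 read lower on every mdx array at 10.5 months, with a log2 difference of -0.81, and the groups of the other overlapped, with a difference of -0.15.

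The cryptochromes are the partners of PER in repression. Cry2 read 176, 137 and 58.7 in control and 286, 231 and 305 in mdx hearts at 8 weeks. Its signal in older hearts was 95.7, 164 and 143 (control) and 150, 37.3 and 37.5 (mdx). The mdx arrays were thus all above the control arrays at 8 weeks, while 2 of the 3 were below them at 10.5 months. The log2 differences were 1.05 ± 0.36 (adjusted p = 0.157) and -0.78 ± 0.36 (adjusted p = 0.674). Cry1 was under the testing limit. It read 120, 140 and 61.8 in control and 76.7, 76.7 and 78.4 in mdx hearts at 8 weeks. Readings of 70.2, 67.0 and 25.5 (control) and 47.8, 55.6 and 62.3 (mdx) followed in older hearts, with overlap at both ages.

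Nr1d1 and Nr1d2 encode the repressors of Arntl. Nr1d1 read 1196, 1065 and 940 in control and 1053, 1192 and 1001 in mdx hearts at 8 weeks, where the groups overlapped. Its signals in older hearts, 1215, 914 and 1299 (control) and 790, 599 and 452 (mdx), did not overlap. The log2 difference was 0.02 ± 0.20 at 8 weeks (adjusted p = 0.97). At 10.5 months it was -0.88 ± 0.20, or 1.84-fold lower (adjusted p = 0.309).

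Nr1d2 read 2995, 3040 and 2277 in control and 2773, 2114 and 2458 in mdx hearts at 8 weeks. Older control hearts gave 3323, 3119 and 3598, and older mdx hearts 2023, 1473 and 1557. The older groups did not overlap and the younger did. The log2 difference at 10.5 months was -0.99 ± 0.17, or 1.98-fold lower, with an unadjusted p of 7.08e-05 that ranked 12 among 14932 and an adjusted p of 0.0879 in limma. At 8 weeks it was -0.17 ± 0.17 (adjusted p = 0.647). A dimmer probe set of Nr1d2 read 353, 328 and 340 in mdx against 531, 533 and 623 in control hearts at 8 weeks, and 557, 263 and 161 against 669, 491 and 772 at 10.5 months. It separated the groups at 8 weeks only, where its log2 difference was -0.67 ± 0.30 (adjusted p = 0.27), and gave -1.05 ± 0.30 at 10.5 months (adjusted p = 0.475).

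**Figure D2:**
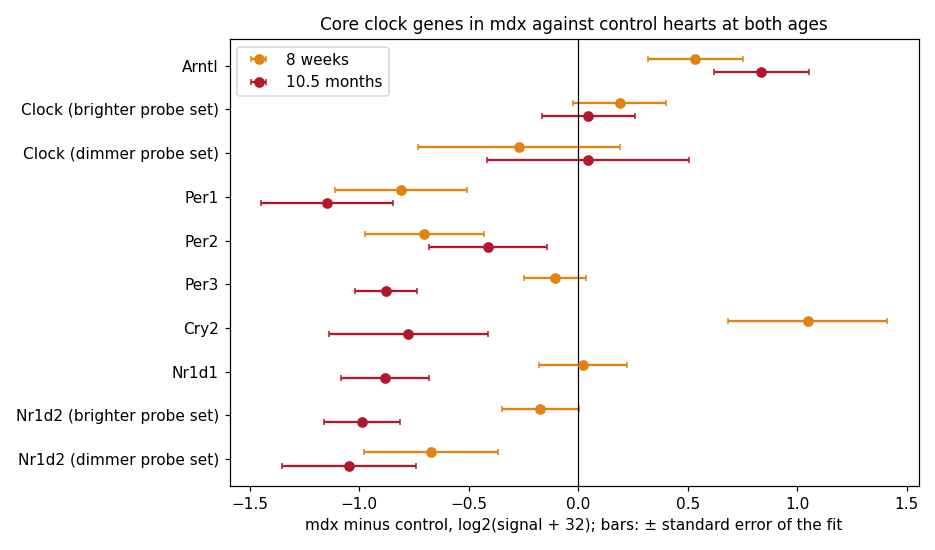
Log2 difference of mdx minus control for each tested probe set of the clock loop at 8 weeks and at 10.5 months. Bars are ± the standard error of the limma fit, and Npas2 and Cry1, which were not tested, are not shown. At 10.5 months Arntl lies at 0.84 and Per1, Per3, Nr1d1 and Nr1d2 between -1.15 and -0.88, and no gene passed the adjusted threshold.

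Set against all probe sets, the limma calls among clock probe sets between mdx and control were 0 of 10 at 8 weeks, where 2.3% of all tested probe sets were called, and 0 of 10 at 10.5 months, where 0.0469% were. At an unadjusted p below 0.05 they were 5 of 10 at 8 weeks (17.8% of all) and 6 of 10 at 10.5 months (7.37% of all). Of those 6, 5 were lower in mdx hearts, as were 4.69% of all, and Arntl was higher, as were 2.68% of all. Both probe sets of Nr1d2 are among the 5, so that by gene 4 of 8 were lower. Groups did not overlap for 3 of 10 at 8 weeks (19.6% of all) and for 5 of 10 at 10.5 months (18.1% of all). For the mean over both ages 0 of 10 were called (0.201% of all) and 7 of 10 had an unadjusted p below 0.05 (13.6% of all). Per2, which passed the filter only through the control hearts, is counted among the 5 at 8 weeks and among these 7. The smallest adjusted p-values of that mean were 0.0728 for Per3 (-0.49 ± 0.10), 0.0897 for Nr1d2 (-0.58 ± 0.12), 0.095 for Per1 (-0.98 ± 0.21) and 0.1 for Arntl (0.68 ± 0.15).

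Over all members, the dim ones included, the median log2 difference of the 3 positive-limb genes was 0.53 at 8 weeks and 0.24 at 10.5 months. That of the 7 negative-limb genes was -0.17 at 8 weeks and -0.88 at 10.5 months, against -0.01 and -0.03 for all tested probe sets. In the negative limb 5 of 7 values were below 0 at 8 weeks, with a range of -0.81 to 1.05, and 6 of 7 at 10.5 months, with a range of -1.15 to 0.06. The positive limb was not uniform, since Arntl stood apart from Clock at 10.5 months. Without control replicate 3, the positive-limb median at 10.5 months was -0.038.

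The difference between the ages was tested as an interaction, and limma called 0 of 10 clock probe sets, with 0.154% of all called. At an unadjusted p below 0.05 there were 4 of 10 (12.1% of all), all with a lower value at 10.5 months (7.03% of all). They were Cry2 (-1.82 ± 0.51, adjusted p = 0.185), Nr1d1 (-0.90 ± 0.28, adjusted p = 0.224), Nr1d2 (-0.82 ± 0.25, adjusted p = 0.208) and Per3 (-0.77 ± 0.20, adjusted p = 0.158). The dimmer probe set of Nr1d2 gave a smaller interaction, -0.37 ± 0.43 (adjusted p = 0.777). For Arntl the interaction was 0.30 ± 0.31 (adjusted p = 0.741) with a 95% interval of -0.36 to 0.96, and for Per1 it was -0.34 ± 0.43 (adjusted p = 0.8). The separation seen at 10.5 months and not at 8 weeks for Per3, Nr1d1 and Nr1d2 was therefore not called as a difference between the ages.

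With age in the mdx hearts, 3 of 10 clock probe sets were called by limma, where 11.4% of all were, 5.45% higher and 5.97% lower. Arntl rose by 0.98 ± 0.22 on the log2 scale, or 1.97-fold (adjusted p = 0.0152). Cry2 fell by 1.67 ± 0.36 (adjusted p = 0.0142), and Nr1d1 fell by 0.82 ± 0.20 (adjusted p = 0.0225). At an unadjusted p below 0.05 there were 6 of 10 (30.2% of all), and groups did not overlap for 5 of 10 (30.2% of all), these 3 genes among them. Per3 missed the threshold with -0.46 ± 0.14 (adjusted p = 0.0501), as did Nr1d2 with -0.54 ± 0.17 (adjusted p = 0.0622). The dimmer probe set of Nr1d2 gave only -0.21 ± 0.30 (adjusted p = 0.687). This comparison shares its 10.5-month mdx arrays with the comparison against control hearts. Its calls also rest on single arrays: the count was 5 without mdx replicate 1, 1 without replicate 2 and 0 without replicate 3 of the 10.5-month group. Without replicate 3 of that group Arntl had an adjusted p of 0.0513, Cry2 0.0568 and Nr1d1 0.0802. Without replicate 2 of that group Cry2 had 0.0616 and Nr1d1 0.0698, and without mdx replicate 2 at 8 weeks Nr1d1 had 0.0619. Those were all the losses: Arntl kept its call in 23 of 24 alternatives, Cry2 in 21 of 23 and Nr1d1 in 21 of 24.

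With age in the control hearts, 0 of 10 were called (0.147% of all), and 2 of 10 had an unadjusted p below 0.05 (12.2% of all). Arntl gave 0.68 ± 0.22 (adjusted p = 0.243) and Per3 0.31 ± 0.14 (adjusted p = 0.401). Nr1d2 gave 0.28 ± 0.17 (adjusted p = 0.56). Per1 gave -0.42 ± 0.30 (adjusted p = 0.618).

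The arrays of 1 group did not all sit together. On a scale centred on each gene's mean, log2 Arntl and the mean of the 6 tested negative-limb genes were 0.75 and -0.20 on mdx replicate 1 at 10.5 months. They were 0.80 and -0.84 on replicate 2, and 0.94 and -0.77 on replicate 3. These were the 3 highest Arntl values and the 3 lowest negative-limb values of the 12 arrays. Next to them came mdx replicate 2 at 8 weeks, with 0.41 and -0.10. That array had the highest Arntl and the lowest Per1, Per2 and Nr1d2 signals of its group, but also the highest Nr1d1 signal, 1192, and it is among the 4 arrays with a wide range. The other two mdx arrays at 8 weeks gave -0.45 with 0.25 and -0.40 with 0.23. Control arrays ran from -0.83 to -0.56 for Arntl and from 0.05 to 0.42 for the negative limb at 8 weeks. Older control hearts gave 0.14 with 0.10, 0.14 with 0.22 and -0.29 with 0.40.

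**Figure D3:**
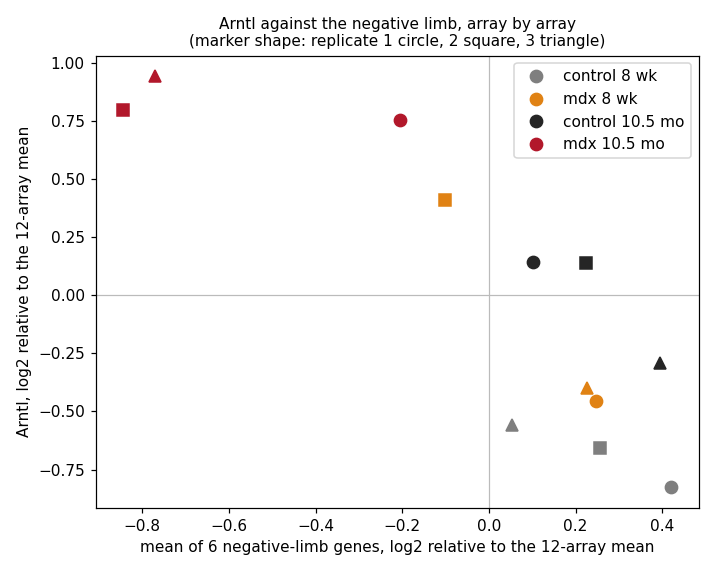
Log2 Arntl signal against the mean log2 signal of the 6 tested negative-limb genes, each centred on its mean over 12 arrays. Each array is 1 point, with a colour per group and a marker shape per replicate number. The mdx arrays at 10.5 months lie at Arntl values of 0.75 to 0.94 and negative-limb values of -0.84 to -0.20, apart from the other 9 arrays.

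Markers of other tissue and cell types were read beside these values. Of the 10.5-month control hearts, replicates 1 and 2 had the highest atrial score of all arrays (mean log2 signal of Myl7, Myl4 and Sln), 11.6 and 10.9, and replicate 3 the lowest, 6.91. The mdx hearts of that age lay at 7.01 to 8.21. Of the 7 atrial markers limma called 0 at 10.5 months (4 at an unadjusted p below 0.05, against 7.37% of all), and 6 of 7 read lower in mdx hearts, with a median log2 difference of -0.88. Sln, a calcium pump inhibitor of the atrium, had the smallest p-value (-2.85 ± 1.03, adjusted p = 0.631), while Nppa gave 0.76 ± 0.31. At 8 weeks 1 of 7 was called (2.3% of all), Kcna5, an atrial potassium channel gene. It fell by 1.10 ± 0.19 (adjusted p = 0.0173), while the other 6 read higher in mdx hearts. Replicate 3, with the lowest atrial score, had the highest Per3, Nr1d1 and Nr1d2 and the lowest Arntl signals of the older control hearts. With replicates 1 and 2 left out, a check added after seeing the data, the log2 differences at 10.5 months were 1.12 for Arntl, -1.00 for Per3, -1.08 for Nr1d1 and -1.09 for Nr1d2, against a single control array. As that array held the most extreme control value of each of these genes, the differences had to widen. This check therefore cannot decide the part of atrial tissue in the clock values. Summed fibroblast markers (8 genes) were 22590 to 30887 in mdx against 19970 to 20785 in control hearts at 10.5 months, and at 8 weeks 22093 to 24867 against 16856 to 20215. Limma called 0 of these 8 at either age, with 1 and 3 at an unadjusted p below 0.05. Of all tested probe sets, 17.8% at 8 weeks and 7.37% at 10.5 months had such a p-value. These shares also stand beside the counts of the lists that follow. The smallest p-values were those of the matrix genes Postn at 8 weeks (0.96 ± 0.44, adjusted p = 0.278) and Lum at 10.5 months (0.78 ± 0.19, adjusted p = 0.367). Summed macrophage markers (10 genes) overlapped at 10.5 months, at 11962 to 19735 and 10067 to 14215, and limma called 0 of 10 at either age, with 1 and 1 at an unadjusted p below 0.05 (Cd163 at -0.99 ± 0.27 and Tyrobp at 0.75 ± 0.31). The 6 endothelial markers all read lower in mdx hearts at both ages, with medians of -0.12 and -0.22 and sums of 4666 to 6037 against 6013 to 6863 at 10.5 months. Limma called 0 of 6, with 0 and 1 (Vwf, -0.59 ± 0.21) at an unadjusted p below 0.05. Of 6 ventricular markers 0 were called and 0 had an unadjusted p below 0.05, with medians of 0.39 and 0.21 and sums of 139045 to 185788 in mdx against 119524 to 145937 in control hearts at 10.5 months. The part of fibroblasts, macrophages, endothelium and ventricular tissue in the clock values was not tested. In whole tissue, fewer cells of a type and less RNA per cell cannot be told apart.

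The factors that act on D-boxes, themselves driven by the loop, gave calls at 10.5 months. Of Dbp, Tef and Hlf, which activate D-boxes, and Nfil3, which represses them, limma called 0 of 4 at 8 weeks (2.3% of all) and 2 of 4 at 10.5 months (0.0469% of all), both lower. At an unadjusted p below 0.05 there were 1 of 4 (17.8% of all) and 3 of 4 (7.37% of all). At 10.5 months the 4 genes had a median log2 difference of -1.13. Dbp, the most strongly cycling of these in many tissues, read 1194, 1322 and 1923 in control and 457, 267 and 314 in mdx hearts at 10.5 months. It fell by 2.00 ± 0.28 (adjusted p = 0.0184). Tef read 1851, 1991 and 2718 against 1126, 850 and 644, and fell by 1.31 ± 0.20 (adjusted p = 0.0414). In both the groups were far apart. Hlf read 339, 432 and 516 against 242, 185 and 189, also without overlap, with -0.95 ± 0.16 (adjusted p = 0.0797), and Nfil3 gave 0.17 ± 0.36. Both calls depended on the processing and on single arrays. Dbp ran from -2.40 to -1.80 over 25 alternatives and kept its call in 14, losing it without any 1 of the 3 control arrays or without mdx replicate 2 or 3 of that age (adjusted p 0.055 to 0.17). It also lost it with no filter (0.0656), the replicate block (0.0768), the signal range as a block (0.064), the atrial covariate (0.0557), the mean of its probe sets (0.0721) and without control replicates 1 and 2 (0.252), at log2 differences of -2.40 to -1.84. Tef ran from -1.64 to -0.97 and kept its call in 7 of 25, with an adjusted p of 0.141 in the replicate block. Of the single arrays, it kept the call without mdx replicate 3 at 8 weeks or without mdx replicate 1 at 10.5 months, and lost it without any other 1 of the 12. With age in mdx hearts Tef fell by 1.18 ± 0.20 (adjusted p = 0.005) and Hlf fell by 0.61 ± 0.16 (adjusted p = 0.0309).

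**Figure D4:**
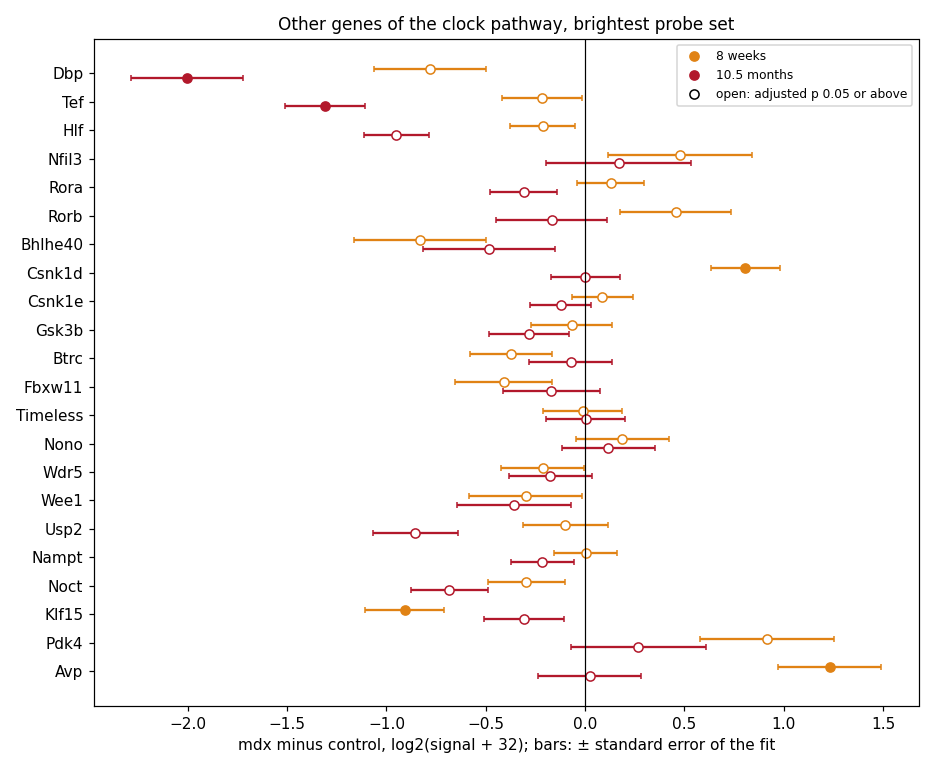
Log2 difference of mdx minus control at 8 weeks and at 10.5 months for other genes of the clock pathway, grouped by role, with filled points where limma called a change. At 10.5 months Dbp (-2.00) and Tef (-1.31) are called lower, and at 8 weeks Csnk1d (0.81), Avp (1.23) and Klf15 (-0.91) are called.

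Among the ROR receptors, which activate Arntl at the sites that NR1D1 and NR1D2 occupy, 2 of 3 genes were tested, and limma called 0 between mdx and control at either age, also 0 at an unadjusted p below 0.05, with medians of 0.29 and -0.24. Rora fell with age in mdx hearts, by 0.86 ± 0.17 (adjusted p = 0.00985), from 657, 605 and 512 to 362, 329 and 247. In control hearts it also read lower with age, from 493, 589 and 529 to 341, 393 and 443. Those groups did not overlap either, but limma did not call that change. Of 3 accessory repressors Bhlhe40 alone was tested, and it gave -0.83 ± 0.33 at 8 weeks (adjusted p = 0.213) and -0.48 ± 0.33 at 10.5 months. Of 8 tested regulators of PER and CRY, limma called 1 higher at 8 weeks (2.3% of all) and 0 at 10.5 months. At 10.5 months 0 also had an unadjusted p below 0.05, and the medians at the 2 ages were -0.040 and -0.099. The call was Csnk1d, a kinase of PER proteins, with 1046, 1196 and 1207 in control and 2591, 1900 and 1701 in mdx hearts. It rose by 0.81 ± 0.17 (adjusted p = 0.0361), but its probe sets disagreed: their mean gave -0.05.

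Of 7 further clock-driven genes, 1 was called higher and 1 lower at 8 weeks, against 2.3% of all called. Avp, a hormone gene under clock control in the brain, rose by 1.23 ± 0.26 (adjusted p = 0.0329), from 32.3, 116 and 34.4 in control to 157, 187 and 165 in mdx hearts. These signals are close to the testing limit. Avp passed that limit only through the mdx arrays at 8 weeks, where it read high, so its call is not independent of the filter. Klf15, a regulator of heart metabolism, fell by 0.91 ± 0.20 (adjusted p = 0.0383), from 885, 666 and 642 to 369, 309 and 445. At 10.5 months limma called 0 of 7, with 2 at an unadjusted p below 0.05 (7.37% of all) and a median of -0.31. The smallest p-values belonged to Usp2, a deubiquitinase, at -0.86 ± 0.21 (adjusted p = 0.367) and Noct, a phosphatase with a daily rhythm, at -0.68 ± 0.19 (adjusted p = 0.448). Usp2 read 2083, 1923 and 2140 in control and 1344, 1000.0 and 1036 in mdx hearts at 10.5 months, with no overlap. The calls of Csnk1d, Avp and Klf15 were lost in 12 of 25, 10 of 24 and 13 of 25 alternatives.

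Signals that act on Per genes from outside the loop were read from 3 lists. Of 9 glucocorticoid-responsive genes 0 were called by limma at 8 weeks and 0 at 10.5 months, with 3 and 4 at an unadjusted p below 0.05 (17.8% and 7.37% of all). The smallest p-values were those of Tsc22d3 at 8 weeks (-0.60 ± 0.18, adjusted p = 0.101) and Zbtb16 at 10.5 months (-1.26 ± 0.38, adjusted p = 0.547). Of 8 tested immediate early genes 0 were called at each age, with 2 and 2 at an unadjusted p below 0.05 (17.8% and 7.37% of all), led by Ier2 at 8 weeks (-0.53 ± 0.16, adjusted p = 0.109) and Egr1 at 10.5 months (0.46 ± 0.17, adjusted p = 0.631). Of 9 tested temperature and heat shock genes 1 was called at 8 weeks (2.3% of all), the chaperone Hsph1, which fell by 0.75 ± 0.17 (adjusted p = 0.0467), a call lost in 18 of 25 alternatives. At 10.5 months 0 were called and 1 had an unadjusted p below 0.05 (7.37% of all), Cirbp (-0.56 ± 0.19, adjusted p = 0.587), which encodes a cold-inducible RNA-binding protein.

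The genes most like 3 members over the 12 arrays were listed by Pearson correlation of log2 signal among 8851 other tested genes. These correlations are descriptions over arrays that share group differences and scaling. For Per3 the highest were Hlf (0.95), Nr1d2 (0.92), Dbp (0.89), Dele1 (0.86) and Tef (0.86), so that 4 of the 5 were clock genes. For Nr1d1 the highest was Tef (0.94). The highest for Arntl were Armt1 (0.92), Rab23 (0.91), Nppb (0.90), Maoa (0.90) and Dpt (0.89), none of them a loop gene. At the opposite end, Psmd3 was lowest (-0.93) and Per1 ranked 14 from the lowest (-0.88). After taking off the group means, the highest were Zfp703 (0.92) for Per3 and Tmem19 (0.94) for Nr1d1, and Armt1 (0.93) again for Arntl. The clock genes named above then ranked lower. For Per3, Hlf ranked 57 (0.77), Tef 417 (0.58), Nr1d2 1351 (0.39) and Dbp 1693 (0.34). Tef ranked 36 for Nr1d1 (0.83), and Per1 ranked 388 from the lowest for Arntl (-0.70). Much of the likeness over the 12 arrays thus lay in the group differences already given.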

How the data were processed

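Per the labels, heart RNA was run with a standard Affymetrix protocol. The deposited values were intensity, 1 per probe set and array, from 0.3 to 210298. The authors had scaled them to a common trimmed mean (1500.6 to 1500.9, 2% left off each end). The probe-summary software was not given in the sources used here. The platform annotation named a single gene for 20393 probe sets, several genes for 691 and no gene for 1606, and the RefSeq table matched 20364 symbols. Signals were rescaled to a trimmed mean of 500 and taken as log2(signal + 32); the offset is 96 deposited units. The 64 control probe sets and those with a mean under 100 (300 deposited units) were left out, so that 14932 remained, for 8852 genes. limma 3.58.1 in R 4.3.3 fitted 1 mean per group over 12 arrays (8 residual and 5.2 prior degrees of freedom). The script was tested on simulated data. Calls had an adjusted p below 0.05. Within-group correlations were 0.948 to 0.982. The number of arrays, 3 per group, limits the precision.

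All 10 members were named, and from each list described the genes called between mdx and control, or otherwise the gene with the smallest p-value (for endothelium at 10.5 months alone, and for ventricle none); Hlf, Nfil3 and Noct, the untested members and the calls with age were added after their values were seen, as were the genes set beside the called ones. The likeness rule took 5 genes at each end for Arntl, Per3 and Nr1d1. Members and lists were chosen with earlier results of these data known. The 25 alternatives covered the offset, a floor, the filter, scaling, the variance model, array weights, same-age arrays alone, the signal range as a block, atrial markers, probe choice, the replicate block and left-out arrays.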

Additional observations from a re-analysis of the deposited data

How the results depend on the processing

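At 8 weeks and for the difference between ages, 0 clock probe sets were called in each of the alternatives run. At 10.5 months the count of 0 became 1 with an offset of 16 or a floor of 64 (Per3), with a filter at 200 or a trended variance (Nr1d2) and when probe sets were averaged per gene (Per3). It became 5 with array weights (Nr1d2, Per3, Arntl, Nr1d1 and Per1), a setting that called 110 probe sets in all against 7, and ranged from 0 to 1 with 1 array left out (Per3 without mdx replicate 3 at 8 weeks, Nr1d2 without mdx replicate 1 at 10.5 months). For the mean over both ages it became 1 with the trended variance, 1 with the mean of probe sets and 4 with array weights, and ranged from 0 to 1 with 1 array left out. With age in control hearts it was 1 with array weights (Arntl). With age in mdx hearts the count of 3 ranged from 0 to 5 with 1 array left out. The cause of these shifts was not tested. Over the alternatives at 10.5 months, Per3 ran from -1.04 to -0.80, Nr1d2 from -1.13 to -0.90, Nr1d1 from -1.08 to -0.69, Per1 from -1.39 to -0.89 and Arntl from 0.69 to 1.12, with adjusted p-values of 0.00272 to 0.611, 0.00465 to 0.698, 0.0382 to 0.979, 0.0165 to 0.984 and 0.0485 to 1.

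The positive-limb median at 8 weeks was 0.25 with the mean of probe sets and ranged from 0.25 to 0.69 with 1 array left out. At 10.5 months it was 0.62 with the atrial score as a covariate and 0.81 without control replicates 1 and 2, an alternative chosen after seeing the data, and ranged from -0.038 to 0.41 with 1 array left out. The negative-limb median at 10.5 months ranged from -1.07 to -0.69. Of the clock loop genes, signs turned for uncalled differences of Clock, Per2 and Nr1d1. Outside the loop, the called Csnk1d difference at 8 weeks turned from 0.81 to -0.049 with the mean of probe sets. Clock at 8 weeks was -0.042 with the mean of probe sets. At 10.5 months it ranged from -0.15 to 0.30 with 1 array left out, with -0.013 without control replicate 2, -0.15 without control replicate 3 and -0.023 without mdx replicate 2. The Clock difference between ages was 0.29 with the atrial covariate, 0.088 with the mean of probe sets, 0.25 without control replicates 1 and 2, and ranged from -0.34 to 0.11 (the latter without control replicate 1 at 10.5 months) with 1 array left out. That of Per2 was -0.16 and -0.061 with the atrial covariate and without those controls. Nr1d1 at 8 weeks was -0.063 and -0.047 without control replicate 3 or mdx replicate 2.

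Arrays with the same replicate number did not pair. The correlations of their deviations were -0.13, 0.13 and 0.11 at 8 weeks and 0.02, -0.09 and -0.07 at 10.5 months. For control and mdx arrays with unlike numbers they ran from -0.29 to 0.25 and from -0.08 to 0.14. With the replicate number as a block, 1 clock probe set (Per1) was called for the mean over both ages against 0, and the counts for mdx against control at each age stayed at 0. Outside the loop, the block ended the calls of Dbp (adjusted p = 0.0768) and Tef (0.141) at 10.5 months and of Csnk1d (0.0636) and Hsph1 (0.0762) at 8 weeks.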
